A study of Mus musculus with 6 samples.

Results

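The 30 genes described here carry out inhibition by GABA and glycine in the spinal cord and set the chloride gradient that this inhibition depends on. They were picked by gene symbol, and all 30 were found among the 54532 genes of the deposited count table. Of these, 7 belong to the presynaptic and clearance class, 18 to the receptor class with its scaffold, and 5 to the chloride-transport class. All libraries were made from cord of C57BL/6J mice that had a spinal injury: 3 of rotarod-trained animals (the rotarod is a turning rod on which a mouse has to keep walking) and 3 of animals left untrained. All 6 libraries share the injury and a time point of day 28, which the labels count from training. The labels give no sex, age, cord segment or injury method, do not say whether each library is a separate mouse, and no uninjured cord was analysed here. The p-values therefore rest on the spread between libraries, and that spread may be technical.

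GABA and glycine open chloride channels in the receiving neuron, and both transmitters are used by spinal interneurons, in part by the same cells. Whether the opened channels inhibit depends on how little chloride the neuron holds, which rests on the extruder KCC2 (Slc12a5) and the importer NKCC1 (Slc12a2). In rats, loss of KCC2 from motor neurons below a spinal injury is known to go with spasticity.

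Total counts per library were between 15814104 and 26092014, so that 3 counts corresponded to 0.116 to 0.192 CPM (counts scaled to library size by trimmed means of M-values). The cord label was checked against Hox genes of the trunk, whose 10 listed members summed to 572 to 688 CPM in trained cord, against 538 to 568 CPM in untrained cord. These sums did not overlap, and the part of cord position in the results was not tested. Trained replicate 3 stood apart in having the lowest level of most members, and the main counts and the values of several members are also given without it. In bulk tissue, fewer cells of a type and less RNA per cell cannot be told apart.

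None of the 30 members passed edgeR's quasi-likelihood test at an adjusted p below 0.05, where 0.0591% of the 16909 genes tested did (10 genes). At an unadjusted p below 0.05 there were 2 members, Glra1 and Gabrb2, both lower in trained cord. That is 6.67% of the members, against 10% of all genes tested, of which 5.55% were lower and 4.47% higher in trained cord. The groups did not overlap in 3 members (Glra1, Gabrg1 and Slc6a5), which is 10% of them, against 16.8% of all genes tested. Log2 fold changes, given throughout as trained over untrained, were negative in 22 members and positive in 8, and 52% of all genes tested were negative. Their median was -0.047, against -0.0080 over all genes. Without trained replicate 3 the balance turned, to 11 negative and 19 positive members with a median of 0.030, where 48.2% of all genes tested were negative. The shares at an unadjusted p below 0.05 and of groups that did not overlap were both below those of the whole table. DESeq2 called 1 member, Glra1, among 90 genes, and edgeR with no filter on low counts called 1, also Glra1, among 276 genes.

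**Figure D1:**
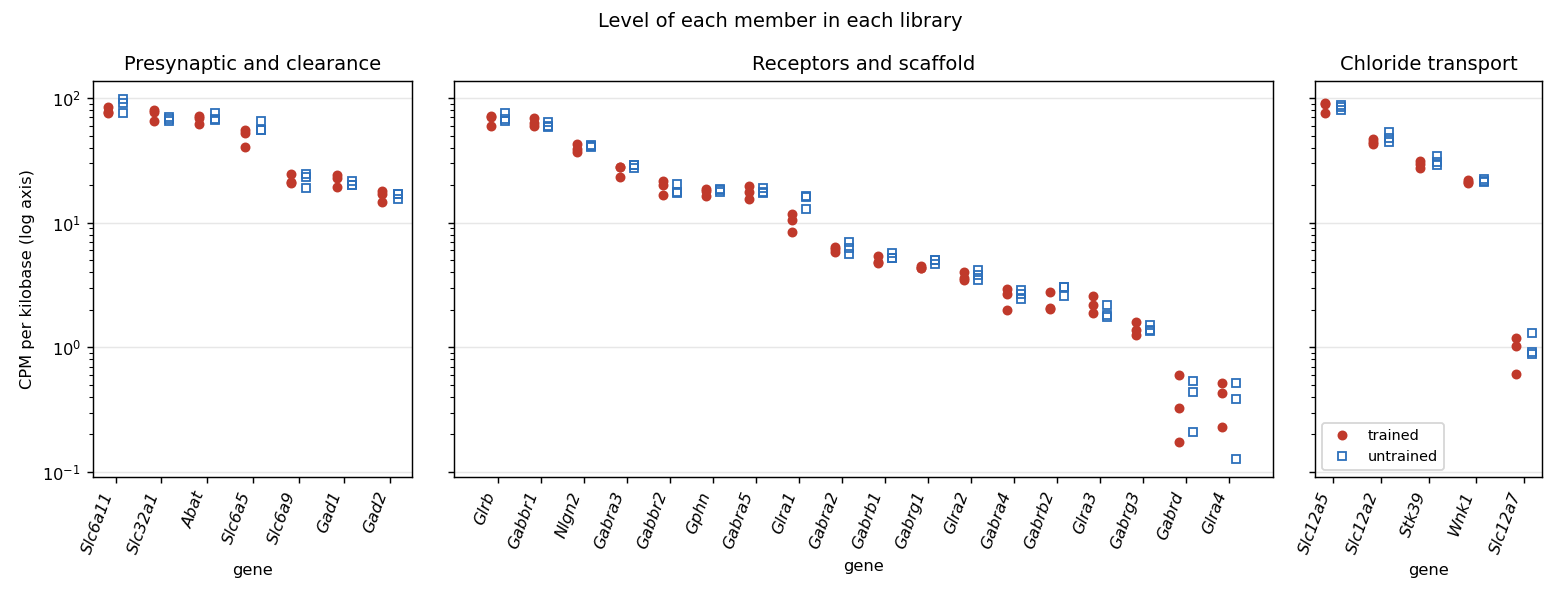
Level of each member in CPM per kilobase of gene length (log axis) in each library, trained libraries as filled circles left of untrained libraries as open squares. The genes of a class are ordered by level, from Slc12a5 at 85.3 CPM per kilobase to Glra4 at 0.37, and the separation of the groups is clearest for Glra1.

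Glra1 encodes the adult alpha subunit of the glycine receptor, the channel through which glycinergic interneurons inhibit motor neurons and other cord neurons. It had 28.6, 25.5 and 20.5 CPM in trained replicates 1, 2 and 3, against 31.2, 38.6 and 39.5 CPM in untrained replicates 1, 2 and 3. Every trained library lay below every untrained one, with the smallest gap between replicate 1 of each group. The means were 24.9 ± 4.11 CPM in trained cord, against 36.4 ± 4.57 CPM in untrained cord (SD, n = 3 each), a log2 fold change of -0.54 ± 0.13 (SE), or 31.4% lower with a 95% interval of 16.4% to 43.8% lower. The unadjusted edgeR p was 0.00148, in place 110 of all genes tested, and the adjusted p was 0.223. DESeq2 gave an adjusted p of 0.0357 and edgeR with no filter on low counts 8.68e-05, so that the call depends on the tool and the filter. Over all alternatives, leaving out each library included, its adjusted p ranged from 8.68e-05 to 0.595. Leaving out each library in turn gave log2 fold changes of -0.66 to -0.40. The deposited table places Glra1 (ENSMUSG00000000263) on the minus strand of chromosome 11, bases 55514238 to 55608198 of GRCm38, where the 2 other genes that overlap it had 0 counts.

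None of the other glycine receptor genes had an unadjusted edgeR p below 0.05. Glra2, the alpha subunit of fetal and newborn cord, had 10.8, 12.7 and 11.4 CPM in trained replicates 1, 2 and 3, against 11, 13.1 and 11.95 CPM in the untrained replicates. Its log2 fold change was -0.049 ± 0.13, with a 95% interval of -0.34 to 0.24. Glra3, an alpha subunit of the superficial dorsal horn, had 20.3, 23.8 and 17.3 CPM in trained replicates 1, 2 and 3, against 16.8, 20.1 and 16.2 CPM in the untrained replicates (log2 fold change 0.21 ± 0.13, edgeR adjusted p = 0.634). The groups overlapped for both genes. Glrb, the beta subunit that ties the receptor to its scaffold, had 328, 337 and 280 CPM in trained replicates 1, 2 and 3, against 315, 307 and 355 CPM in the untrained replicates. Its log2 fold change was -0.045 ± 0.089. Glra4, a further alpha subunit, was measured at 12 to 17 counts per library in trained and 4 to 19 in untrained cord, which leaves its difference within a 95% interval of -0.97 to 1.24 on the log2 scale. A gene on the opposite strand overlaps it and had 237% of its count, so its value is uncertain if strand was not used in counting.

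**Figure D2:**
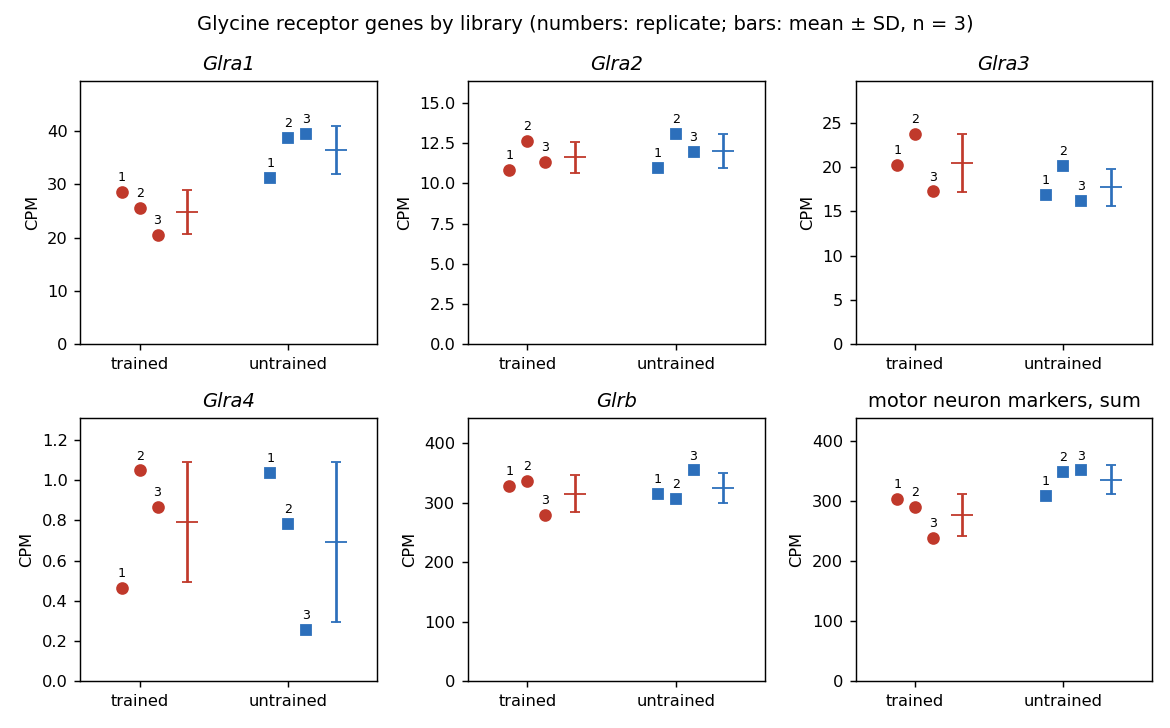
CPM of the 5 glycine receptor genes, and summed CPM of 8 motor neuron markers, in each library, with the replicate number above each point and the mean ± SD (n = 3) beside each group. Trained libraries lie below untrained ones for Glra1 (28.6 or less against 31.2 or more) and for the motor neuron sum (304 or less against 308 or more), and the groups overlap in the other panels.

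Per kilobase of gene length, Glrb was the most abundant of the 5 at 68.8 ± 5.58 CPM per kilobase (SD, 6 libraries), followed by Glra1 at 12.7 ± 3.08, Glra2 at 3.75 ± 0.292, Glra3 at 2.07 ± 0.313 and Glra4 at 0.37 ± 0.159. Neighbours in this order were separated in all 6 libraries. Of the summed alpha subunit level per kilobase, Glra1 made up 66.9%, 59.7% and 58.9% in trained replicates 1, 2 and 3, against 68.9%, 70.4% and 74.2% in the untrained replicates. Glra3 made up 12.4%, 14.6% and 13.0% in the trained and 9.74%, 9.62% and 7.97% in the untrained libraries. The groups did not overlap in either share, nor in that of Glra2 (19.4%, 22.7% and 25.1% against 18.6%, 18.3% and 17.2%). These are shares of 1 sum, so a lower Glra1 raises the others. They are not separate results.

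The ratio of Glra2 to Glra1, which falls as the cord matures, was 0.291, 0.381 and 0.425 per kilobase in trained replicates 1, 2 and 3, against 0.270, 0.260 and 0.232 in the untrained replicates. The ratio was 1.42-fold higher in trained cord, with every trained library above every untrained one. Glra2 itself differed little (log2 fold change -0.049), so the ratio mostly restates the lower Glra1 and is not a separate result. An exact two-sided permutation test gave p = 0.10, the smallest that 3 against 3 libraries allow, and 0.133 adjusted over the 4 ratios examined.

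As a sum, motor neuron markers were also lower in trained cord. The 8 listed markers, among them Chat (choline acetyltransferase) and Slc5a7 (the choline transporter), summed to 304, 289 and 237 CPM in trained replicates 1, 2 and 3, against 308, 347 and 350.5 CPM in the untrained replicates. All 8 had negative log2 fold changes with a median of -0.24, and 0 passed over all genes. At an unadjusted edgeR p below 0.05, 2 were lower (Slc5a7 and Chodl), where 5.55% of all genes tested were lower. The groups did not overlap in these 2 and overlapped in the others, Chat included. Relative to that sum, Glra1 stood at 9.43%, 8.83% and 8.63% in trained and at 10.1%, 11.1% and 11.3% in untrained replicates 1, 2 and 3. Those shares did not overlap either, with a difference of -0.27 in mean log2 value. Of the summed level of 10 markers of all neurons, Glra1 stood at 0.314% ± 0.0239 in trained and 0.436% ± 0.0245 in untrained cord (SD, n = 3 each). The part of motor neuron or neuronal content in the Glra1 difference was not tested. Negative log2 fold changes were not particular to the motor neuron list. Other lists had them in 7 of 7 microglial, 6 of 6 endothelial and 7 of 8 astrocyte markers. Positive ones were found in 9 of 10 inhibitory and 9 of 10 excitatory interneuron markers, and in 6 of 8 oligodendrocyte markers.

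Of the 9 GABA-A receptor genes, which encode subunits of the chloride channels opened by GABA, all had negative log2 fold changes, between -0.33 and -0.0057, and 0 passed over all genes. The sign of Gabrg3, closest to 0, was positive with upper-quartile scaling, with no filter on low counts and with limma-voom. Without trained replicate 3 Gabra2, Gabra4, Gabra5, Gabrg3 and Gabrd were positive, Gabra3 came to -0.0021, against -0.11 with all libraries, and Gabrb1 to -0.050, against -0.092. Gabrb2, a beta subunit, had 17.5, 13.2 and 12.9 CPM in trained replicates 1, 2 and 3, against 16.5, 19.3 and 19.3 CPM in the untrained replicates. Trained replicate 1 lay above untrained replicate 1, so the groups overlapped. Its log2 fold change was -0.33 ± 0.14 (unadjusted p = 0.0332, adjusted p = 0.459 in edgeR), with adjusted p-values of 0.353 to 0.756 over the alternatives. Without trained replicate 3 it was -0.23, with an unadjusted edgeR p of 0.126. Gabrb2 (ENSMUSG00000007653) lies on chromosome 11, bases 42419757 to 42629028.

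Gabrg1, a gamma subunit, had 33.9, 35.7 and 34.0 CPM in trained replicates 1, 2 and 3, against 36.6, 39.7 and 39.9 CPM in the untrained replicates. The groups did not overlap, although the difference was small, at a log2 fold change of -0.17 ± 0.079 (edgeR adjusted p = 0.514). Of 8 astrocyte markers 7 had negative log2 fold changes, 3 of them at an unadjusted p below 0.05, and 0 passed over all genes. Aldh1l1, the exception, was higher in every trained library, at a log2 fold change of 0.17 (edgeR adjusted p = 0.482). The 8 summed to 3525 to 3926 CPM in trained cord, against 4073 to 4288 CPM in untrained cord, and these sums did not overlap. None of the 8 was at 0. Relative to the astrocyte sum, Gabrg1 stood at 0.931% ± 0.0747 in trained and 0.928% ± 0.0309 in untrained cord (SD, n = 3 each). The part of astrocyte content in the Gabrg1 values was not tested.

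Per kilobase, the alpha subunits Gabra3, at 27.4 ± 2.21 CPM per kilobase (SD, 6 libraries), and Gabra5, at 17.9 ± 1.38, led the 9 genes. Gabra2 at 6.22 ± 0.47, the beta subunit Gabrb1 at 5.20 ± 0.349 and Gabrg1 at 4.65 ± 0.338 came next, and the ranges over libraries overlapped between these neighbours. Gabra4, at 2.61 ± 0.344, and Gabrb2, at 2.58 ± 0.451, could not be ordered, with Gabra4 ahead in 3 of 6 libraries. Gabrg3 followed at 1.41 ± 0.119. Gabrd, a delta subunit of receptors outside synapses, was lowest at 0.379 ± 0.174 CPM per kilobase and had 8 to 28 counts per library in trained and 10 to 24 in untrained cord. Gabra4 and Gabrb1 overlap each other by 196 bases on opposite strands, and Gabra5 lies opposite another GABA-A subunit gene with 237% of its total count. Reads may have been counted without strand, so the values of these genes are uncertain to that extent.

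The metabotropic GABA-B receptor and the postsynaptic scaffold differed little. Gabbr1, the subunit that binds GABA, averaged 498 ± 36.7 CPM in trained cord, against 477 ± 24.0 CPM in untrained cord (SD, n = 3 each). Gabbr2, the subunit that couples to G proteins, averaged 130.5 ± 16.2 CPM in trained cord, against 124 ± 11.8 CPM in untrained cord. Gphn (gephyrin, which clusters glycine and GABA-A receptors) had a log2 fold change of -0.038 ± 0.074, and Nlgn2 (the neuroligin of inhibitory synapses) one of -0.059 ± 0.075. The 95% intervals of these 4 genes lay within -0.22 and 0.28. A non-coding gene that overlaps Gphn had 16.9% of its count.

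**Figure D3:**
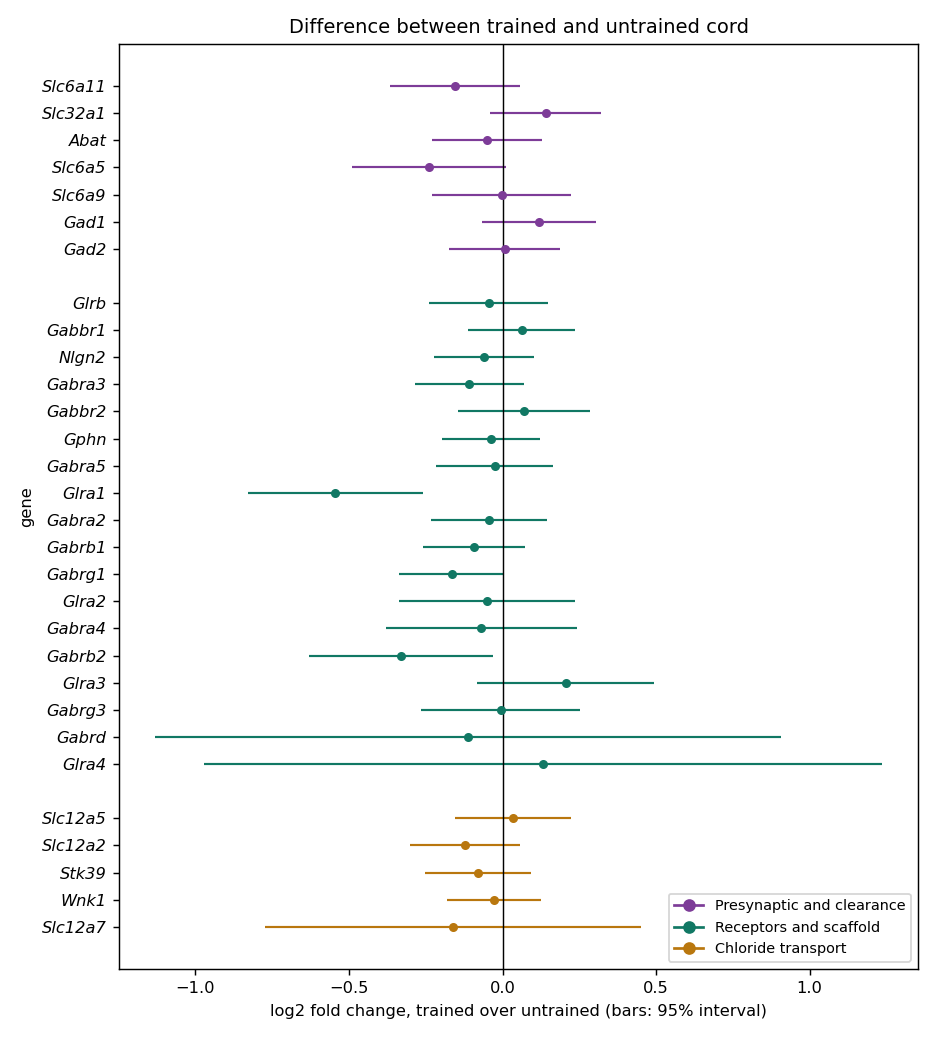
Log2 fold change (trained over untrained, edgeR) of each member with its 95% interval, by class and, within it, by level. The intervals of Glra1 (-0.83 to -0.26) and Gabrb2 (-0.63 to -0.031) leave out 0, and those of Gabrd, Glra4 and Slc12a7 are the widest.

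In the presynaptic and clearance class, 0 of 7 genes passed over all genes and 0 had an unadjusted edgeR p below 0.05 with all libraries and the filter on low counts. Under other settings Slc6a5 had unadjusted p-values of 0.0290 in DESeq2, 0.00644 in edgeR with no filter and 0.0160 in edgeR without trained replicate 1, and Slc6a11 had one of 0.0247 in edgeR without untrained replicate 1. Log2 fold changes were positive in 3 genes and negative in 4, between -0.24 and 0.14. Slc6a5 (ENSMUSG00000039728, chromosome 7, bases 49910146 to 49963856) encodes GlyT2, which returns glycine to the terminals of glycinergic neurons and marks those neurons. It had 397, 380 and 294 CPM in trained replicates 1, 2 and 3, against 398, 397 and 469 CPM in the untrained replicates. The groups were barely set apart, at 396.6 CPM in trained replicate 1 and 396.9 CPM in untrained replicate 2. Its log2 fold change was -0.24 ± 0.11 (edgeR adjusted p = 0.518), and it came to -0.099 without trained replicate 3. Slc32a1 (ENSMUSG00000037771, chromosome 2, bases 158610767 to 158615748) encodes the vesicular transporter that loads both GABA and glycine. It had 226, 218 and 184.5 CPM in trained replicates 1, 2 and 3, against 190, 183 and 197 CPM in the untrained replicates, where trained replicate 3 lay among the untrained libraries. Its log2 fold change was 0.14 ± 0.083 (edgeR adjusted p = 0.596).

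Within each library the ratio of Slc6a5 to Slc32a1, the neuronal glycine carrier against the vesicular carrier, separated the groups. It was 0.682, 0.677 and 0.619 per kilobase in trained replicates 1, 2 and 3, against 0.814, 0.843 and 0.924 in the untrained replicates. The ratio was 1.30-fold lower in trained cord, a log2 difference of -0.38 (exact two-sided permutation p = 0.10, the smallest possible, and 0.133 adjusted over 4 ratios). The difference lay between -0.42 and -0.33 with any library left out, trained replicate 3 included. Most genes listed as inhibitory interneuron markers had a higher fitted level in trained cord, though the sums overlapped. The 10 listed, among them Pax2 and the peptide genes Npy and Sst, summed to 526, 557 and 453 CPM in trained and 427, 479 and 465 CPM in untrained replicates 1, 2 and 3, and 9 of 10 had positive log2 fold changes. Most of that sum came from Calb2 (171 to 224 CPM over the 6 libraries), Pvalb (86.1 to 112) and Sst (81.2 to 125). Sst and Calb2 are not confined to inhibitory cells, so the sum does not measure those cells alone. Of 10 listed excitatory interneuron markers 9 were positive as well. The part of cell content in the Slc6a5 values was not tested. Relative to that sum, Slc6a5 stood at 75.4%, 68.2% and 65.0% in trained and at 93.3%, 82.9% and 101.0% in untrained replicates 1, 2 and 3. For Slc32a1 the same share was 40.9% ± 1.90 in trained and 41.7% ± 3.23 in untrained cord (SD, n = 3 each). The reading depends on the sum chosen. Of the summed markers of all neurons, Slc6a5 made up 4.72%, 4.53% and 4.25% in trained replicates 1, 2 and 3. In the untrained replicates it made up 5.2%, 4.64% and 5.33%, so the groups overlapped. Slc32a1 made up 2.69%, 2.6% and 2.67% of that neuronal sum in the trained and 2.48%, 2.14% and 2.24% in the untrained replicates. Its groups did not overlap there, with the trained libraries higher.

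The ratio of this pair separated the groups, as did Glra2 over Glra1 and Gad1 over Gad2. Only the start regions of this pair are shown. They are the bases before the RefSeq start (GRCm38.p6) that lie outside the gene in the deposited table, read 5′ to 3′ on the plus strand, with capitals marking the AP-1 letters TGAGTCA. The Slc6a5 sequence, from the first of its start entries, is chr7:49910049-49910145 and that of Slc32a1 is chr2:158610508-158610757.
Slc6a5: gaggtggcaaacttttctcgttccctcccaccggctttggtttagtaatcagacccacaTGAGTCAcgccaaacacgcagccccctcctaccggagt
Slc32a1: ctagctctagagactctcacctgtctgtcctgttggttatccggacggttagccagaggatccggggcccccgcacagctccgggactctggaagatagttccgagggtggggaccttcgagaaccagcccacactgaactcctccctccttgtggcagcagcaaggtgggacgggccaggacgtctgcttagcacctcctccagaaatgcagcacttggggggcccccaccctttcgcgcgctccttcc

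Of 32851 RefSeq windows of 250 bases before a start, 4.46% held TGAGTCA on either strand, a motif searched after the Slc6a5 sequence had been read. Among the 35 windows of the 26 members with an entry, 2 held it, of Slc6a5 and Slc12a5. Of general promoter motifs, searched on both strands, neither printed sequence held any of the following. A GC box (GGGCGG) stood in 54.3% of the member windows (median 60.8% G and C), against 32.7% of all windows (median 52.4%). The CCAAT box (these 5 letters) stood in 31.4% of the member windows, against 33.8% of all. A TATA box (letters TATAAA) stood in 14.3% of the member windows, against 12.4% of all. The cyclic AMP element (TGACGTCA) stood in 0 of 35 member windows, against 1.55% of all. No entry was given for Glra1, Gabrd, Slc12a2 and Abat. The letters are a description of these windows and no site was tested.

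The glutamate decarboxylases make GABA. Gad1, which supplies most of the basal GABA pool, had 176, 186 and 149 CPM in trained replicates 1, 2 and 3, against 153, 153 and 164 CPM in the untrained replicates (log2 fold change 0.12 ± 0.085, edgeR adjusted p = 0.678). Gad2, the form of nerve terminals, had 101, 106 and 85.7 CPM in the trained and 91.7, 99.8 and 99.7 CPM in the untrained libraries (log2 fold change 0.0065 ± 0.084). Both sets of libraries overlapped. The ratio of Gad1 to Gad2 was 1.34, 1.35 and 1.33 per kilobase in trained replicates 1, 2 and 3, against 1.28, 1.18 and 1.27 in the untrained replicates. These did not overlap, with a 1.08-fold higher ratio in trained cord (exact two-sided permutation p = 0.10, the smallest possible, and 0.133 adjusted over 4 ratios).

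No clearance gene had an unadjusted edgeR p below 0.05 with all libraries. Slc6a11 (the astrocyte GABA transporter GAT-3) was the most abundant of the class per kilobase, at 84.1 ± 9.50 CPM per kilobase (SD, 6 libraries). It had 431, 394 and 380 CPM in trained replicates 1, 2 and 3, against 382, 464 and 497 CPM in the untrained replicates (log2 fold change -0.15 ± 0.098, edgeR adjusted p = 0.627). Relative to the astrocyte sum it stood at 10.8% ± 1.02 in trained and 10.7% ± 1.30 in untrained cord (SD, n = 3 each). The part of astrocyte content in the Slc6a11 values was not tested. Slc6a9 (the glial glycine transporter GlyT1) averaged 114.5 ± 11 CPM in trained cord, against 115 ± 15.4 CPM in untrained cord (SD, n = 3 each). The largest of 3 genes that overlap it on the opposite strand had 24.3% of its count. Abat (GABA transaminase, which breaks down GABA) averaged 524 ± 37.6 CPM in trained cord, against 542 ± 36.3 CPM in untrained cord. Per kilobase Slc6a11 was followed by Slc32a1 at 71.4 ± 6.44, Abat at 68.8 ± 4.47, Slc6a5 at 54.0 ± 7.79, Slc6a9 at 22.3 ± 2.33, Gad1 at 21.4 ± 1.93 and Gad2 at 16.5 ± 1.24 CPM per kilobase. Slc32a1 and Abat, and Slc6a9 and Gad1, changed places in 2 of 6 libraries.

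**Figure D4:**
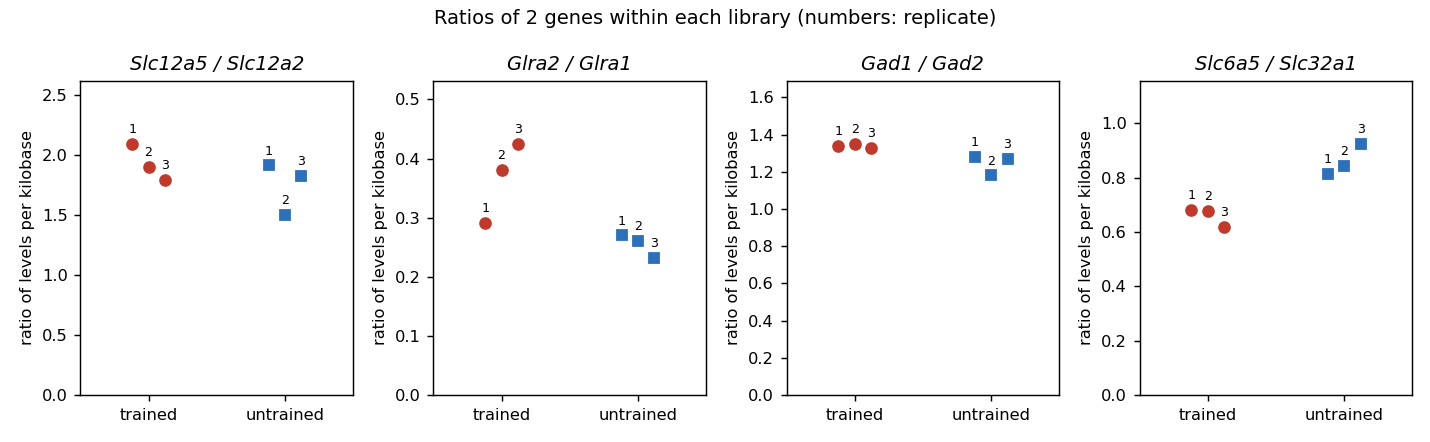
Ratios of levels per kilobase of 4 gene pairs in each library, with the replicate number above each point. The groups are separated for Glra2 over Glra1, Gad1 over Gad2 and Slc6a5 over Slc32a1, and overlap for Slc12a5 over Slc12a2 (1.79 to 2.09 in trained, 1.5 to 1.91 in untrained cord).

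In the chloride-transport class, 0 of 5 genes passed over all genes, 0 had an unadjusted p below 0.05, and the groups overlapped in all 5. Slc12a5 (ENSMUSG00000017740, chromosome 2, bases 164960802 to 164999731) encodes KCC2, the neuronal chloride extruder. It had 687, 671 and 570 CPM in trained replicates 1, 2 and 3, against 632, 598 and 653 CPM in the untrained replicates. Trained replicate 3 was the lowest of the 6 and trained replicates 1 and 2 the highest. The log2 fold change was 0.034 ± 0.087 with a 95% interval of -0.15 to 0.22, which is 10.1% lower to 16.7% higher in trained cord. Slc12a2 (NKCC1, the chloride importer) had 288, 309 and 278 CPM in trained replicates 1, 2 and 3, against 290, 349 and 314 CPM in the untrained replicates. Its log2 fold change was -0.12 ± 0.083 with a 95% interval of -0.30 to 0.057 (edgeR adjusted p = 0.653). Per kilobase the level of Slc12a5 over that of Slc12a2 was 2.09, 1.90 and 1.79 in trained replicates 1, 2 and 3, against 1.91, 1.5 and 1.82 in the untrained replicates. The exact two-sided permutation p for that ratio was 0.50, on a log2 difference of 0.15.

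For the RNA of the kinases that switch these carriers, the 95% intervals held 0, and kinase activity was not measured. Wnk1, which activates the kinase SPAK, had 499, 481 and 478 CPM in trained replicates 1, 2 and 3, against 509, 485 and 492 CPM in the untrained replicates, with a 95% interval of -0.18 to 0.13 on the log2 scale. Stk39 (SPAK, which activates NKCC1 and inhibits KCC2) averaged 147 ± 9.85 CPM in trained cord, against 155 ± 12.2 CPM in untrained cord (SD, n = 3 each). With all libraries the log2 fold change of Stk39 was -0.080, with a 95% interval of -0.25 to 0.093. Without trained replicate 3 the log2 fold change was -0.012. Slc12a7 (KCC4, a potassium-chloride carrier of low level here) had 7.78, 12.9 and 15.1 CPM in trained replicates 1, 2 and 3, against 16.7, 11.7 and 11.3 CPM in the untrained replicates. Its libraries spread within both groups, and its interval was -0.77 to 0.45. Per kilobase the class ran from Slc12a5 at 85.3 ± 5.99 through Slc12a2 at 46.7 ± 3.89, Stk39 at 30.5 ± 2.21 and Wnk1 at 21.5 ± 0.518 to Slc12a7 at 0.993 ± 0.247 CPM per kilobase (SD, 6 libraries), each pair of neighbours being separated in all 6 libraries.

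Trained replicate 3 stood apart across the classes. It had the lowest level of the 6 libraries in 20 of 30 members, 5 of 7 presynaptic, 11 of 18 receptor and 4 of 5 chloride genes, and the highest in 0. Over all genes tested it was lowest in 21.1% and highest in 21.2%. The 10 markers of all neurons summed to 8395, 8380 and 6923 CPM in trained replicates 1, 2 and 3, against 7651, 8556 and 8803 CPM in the untrained replicates, so that trained replicate 3 was the lowest there too. The part of neuronal content in the members' values was not tested. Trained replicate 3 was picked for its low levels of these members, so leaving it out by itself raises most of their log2 fold changes. Without trained replicate 3 the members at an unadjusted p below 0.05 were 5. Of these, 4 were higher in trained cord: Gad1 (log2 fold change 0.23, adjusted p = 0.109), Slc32a1 (0.24, adjusted p = 0.0859), Gabbr2 (0.19, adjusted p = 0.280) and Glra3 (0.33, adjusted p = 0.225), all in edgeR. Glra1 was at -0.40 there, with an edgeR adjusted p of 0.0935. In that fit 14.6% of all genes tested had an unadjusted p below 0.05 and 221 passed, 0 of them members.

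**Figure D5:**
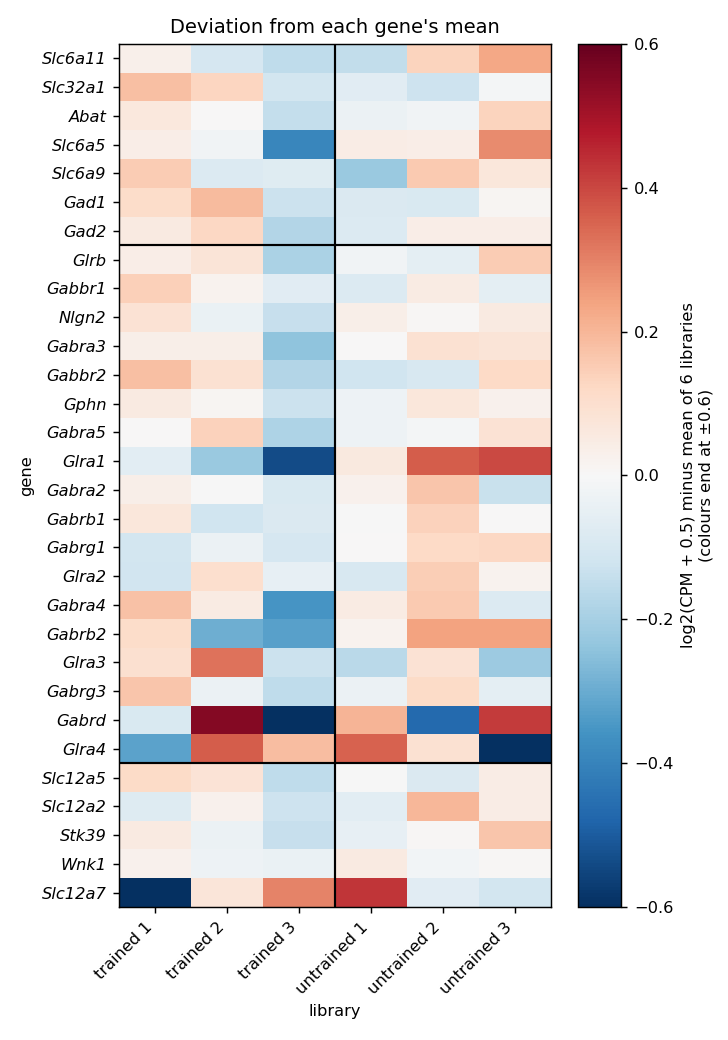
Deviation of log2(CPM + 0.5) of each member from its mean over the 6 libraries, red above and blue below, with colours ending at ±0.6. The column of trained replicate 3 is blue for most genes (lowest of the 6 libraries in 20 of 30), and Glra1 lies below its mean in the 3 trained and above it in the 3 untrained libraries.

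A wider list of 50 genes of the same pathways (rarer GABA-A subunits, adhesion and scaffold proteins, GABA-B auxiliary subunits, glycine cleavage enzymes and other chloride carriers) gave 46 that could be tested. None passed over all genes, while 3 had an unadjusted p below 0.05, 1 higher and 2 lower in trained cord, which is 6.52% of them and below the 10% of all genes tested. DESeq2 and each of the other alternatives also called 0. Igsf9b, an adhesion protein of inhibitory synapses, had 29.5, 31.1 and 32.3 CPM in trained replicates 1, 2 and 3, against 36.9, 37.2 and 39.5 CPM in the untrained replicates. Those groups did not overlap, at a log2 fold change of -0.29 ± 0.081 (edgeR adjusted p = 0.271). Clcn3, a chloride-proton exchanger of endosomes and vesicles, was at -0.20 ± 0.078 (adjusted p = 0.417). Car7, a neuronal carbonic anhydrase, was at 0.38 ± 0.16 (adjusted p = 0.468), and Gabrq, the theta subunit, at 0.33 ± 0.17 (adjusted p = 0.526), all in edgeR. Gabra6, Gabrp, Gabrr1 and Gabrr3 were left out by the filter on low counts, the first pair with 0 counts in all 6 libraries.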

How the data were processed

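Raw counts of reads per gene, unnormalized, were deposited by the authors in 1 table together with symbols, coordinates and lengths, per the file headers. Per the submitters' processing notes, Bowtie 0.12.2, mm8 and mm9 are listed with no role stated. How reads were counted, and whether by strand, is not given in the sources used here. All 30 members had the same ends in GENCODE M21 (GRCm38), so coordinates are of that build, and 15 of 30 overlap another gene.

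The test was edgeR's robust quasi-likelihood fit (version 4.0.16, R 4.3.3) on group alone, after filterByExpr and TMM scaling, with Benjamini-Hochberg adjustment over all 16909 genes kept. A standard error is the size of the log2 fold change over the square root of F. The common biological coefficient of variation was 0.122. The procedure was tested on simulated counts. Levels between genes are CPM per kilobase of the deposited length. Ratios of 2 genes were taken within a library with 0.5 counts added. RefSeq windows were matched by symbol, for 26 of 30 members.

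Members, lists and tests were chosen with earlier results of these data known. The members were all named. Values in full were given for those with an unadjusted p below 0.05, the highest of each class per kilobase and the genes of the 4 ratios, and for others chosen after their values were seen. Shares of marker sums were added after seeing the data. Results were recomputed with DESeq2 1.42.0, limma-voom (limma 3.58.1), upper-quartile or RLE scaling, without a filter, with a minimum of 1 CPM in 3 libraries, with a replicate block and without each library.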

Additional observations from a re-analysis of the deposited data

How the results depend on the processing

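The 30 members gave 389 log2 fold changes under 13 alternatives, of which 344 kept their direction and their side of the threshold. Glra1 passed the test in 2 of them, and 43 values in 17 members changed sign, none of these members being larger than 0.16 in size with all libraries. Slc6a9 came to 0.00072 with RLE scaling, 0.022 with upper-quartile scaling, 0.0076 with no filter, 0.00048 in DESeq2, 0.0013 in limma-voom and 0.00037 with the replicate block. Gabrg3 came to 0.018 with upper-quartile scaling, 0.0045 with no filter and 0.0086 in limma-voom. With each library left out in turn the log2 fold change ranged from -0.056 to 0.11 for Gad2, -0.099 to 0.078 for Slc6a9, -0.097 to 0.025 for Abat, -0.12 to 0.033 for Gabra2, -0.19 to 0.091 for Gabra4, -0.10 to 0.073 for Gabra5, -0.10 to 0.086 for Gabrg3, -0.61 to 0.22 for Gabrd, -0.0073 to 0.19 for Gabbr2, -0.11 to 0.018 for Glra2, -0.24 to 0.56 for Glra4, -0.096 to 0.053 for Glrb, -0.079 to 0.035 for Gphn, -0.12 to 0.013 for Nlgn2, -0.017 to 0.13 for Slc12a5, -0.35 to 0.082 for Slc12a7 and -0.049 to 0.0030 for Wnk1.

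The count of all genes called, 10, was 276 with no filter, 90 in DESeq2, 5 with the replicate block and 4 to 221 with a library left out (4 without trained replicate 2, 21 without trained replicate 1 and 221 without trained replicate 3). Members called were 1 with no filter, 1 in DESeq2 and 0 with any library left out. Members at an unadjusted p below 0.05 were 1 in limma-voom, 1 with the replicate block and 1 to 5 with a library left out. There were 5 without trained replicate 3, and 1 when trained replicate 2 or replicate 2 or 3 of the untrained group was left out. Of all genes tested, 10.4% were below 0.05 in limma-voom, 6.69% with the replicate block and 7.24% to 14.6% with a library left out. Members whose groups did not overlap were 2 to 7 with a library left out (7 without trained replicate 1 or 3, and 6 without untrained replicate 1), where 24.9% to 32.4% of all genes tested did not overlap. They were 2 with RLE or upper-quartile scaling and with no filter, where 16.6%, 16.8% and 11.8% of all genes tested did not overlap. The cause was not tested, except that a library left out means fewer samples. The 4 ratios kept their direction under every alternative run on them. Same-numbered libraries deviated from their group means with correlations of -0.18, -0.091 and -0.13 over genes, so the libraries share a number and no pairing was shown, and no library correlated best with its own number. Depth limits Gabrd and Glra4 most, whose SEs were 0.47 and 0.51 against a member median of 0.088.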

Other observations

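Of 10 listed markers of inhibitory interneurons 9 had positive log2 fold changes, with Lhx1 at -0.13, and of 8 motor neuron markers 8 were negative. None of either list passed edgeR over all genes, and the difference between the lists was not tested. Sst, the somatostatin gene, is not confined to inhibitory cells. It had the smallest p of the inhibitory interneuron list. Its levels were 121, 125 and 99.8 CPM in trained replicates 1, 2 and 3, against 87.7, 81.2 and 84.3 CPM in the untrained replicates. Every trained library lay above every untrained one, at a log2 fold change of 0.45 ± 0.086 (edgeR adjusted p = 0.111). Npy, the neuropeptide Y gene, was at 0.41 ± 0.165 with groups that overlapped (edgeR adjusted p = 0.448). Slc5a7, the choline transporter gene of motor neurons, had 78.0, 60.2 and 48.4 CPM in trained replicates 1, 2 and 3, against 84.6, 85.0 and 90.2 CPM in the untrained replicates (log2 fold change -0.47 ± 0.16, edgeR adjusted p = 0.426). Of 10 listed markers of excitatory interneurons 9 were positive, with Slc17a6 at -0.059. The median of that list was 0.28 on the log2 scale, against 0.20 for the inhibitory list. Tlx3 and Tac2 of the excitatory list were higher in every trained library, at 0.46 and 0.35 (edgeR adjusted p = 0.373 and 0.268). What lies behind these values was not tested.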
